A study of Homo sapiens with 72 samples.

Results

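BCL2 family genes were read for 3 histone marks at their transcription starts and along their bodies in Raji, NALM6 and REH cells. The members are the 10 genes BCL2, MCL1, BCL2L1, BCL2A1, BAX, BAK1, BCL2L11, BID, PMAIP1 and BBC3, which were chosen by name and located by the GENCODE annotation of hg38, 10 of 20007 protein-coding genes. The rule uses no measured value of the marks, but the members were chosen with earlier results of these data known. For each member, all peaks within 1 kb of an annotated start and all peaks over the gene body with 3 kb on either side were collected from 54 libraries. Raji is a Burkitt lymphoma line, and NALM6 and REH are B-cell acute lymphoblastic leukaemia lines. Each line was either left untreated or given 1 nM bryostatin overnight, and H3K4me2, H3K4me3 and H3K27me3 were profiled by Cut&Tag in 3 replicates of every line and condition, which makes 18 groups of 3 libraries. Each group stands for 1 established line, and the labels name no genetic change made to the cells. The labels number the replicates without saying whether they were separate cultures, so the p-values below measure the spread between these libraries, which may be technical.

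Proteins of the BCL2 family control the mitochondrial route of apoptosis. Prosurvival members (BCL2, MCL1, BCL-XL from BCL2L1, and BFL-1 from BCL2A1) bind and restrain the pore-forming effectors BAX and BAK (from BAK1). BH3-only members (BIM from BCL2L11, BID, NOXA from PMAIP1 and PUMA from BBC3) engage the prosurvival proteins or the effectors and so promote cell death. B cells depend on prosurvival members at different stages of their development, and several drugs for B-cell cancers bind these proteins. Bryostatin is a macrolide that binds and modulates protein kinase C. H3K4me3 marks active starts, H3K4me2 marks starts and enhancers, and H3K27me3 is the repressive mark laid down by the Polycomb machinery.

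The prosurvival genes are BCL2 at chr18:63123346-63320128, MCL1 at chr1:150560895-150579738, BCL2L1 at chr20:31664452-31723989 and BCL2A1 at chr15:79960892-79971196, all on the minus strand. The effector genes are BAX at chr19:48954815-48961798 on the plus strand and BAK1 at chr6:33572547-33580293 on the minus strand. Of the BH3-only genes, BCL2L11 at chr2:111119378-111168444 and PMAIP1 at chr18:59899996-59904305 lie on the plus strand. BID at chr22:17734138-17774770 and BBC3 at chr19:47220822-47232766 lie on the minus strand. Gene lengths ran from 4.31 kb for PMAIP1 to 196.783 kb for BCL2, so the number of peaks that a body can hold differs widely between members.

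The promoters of 9 of the 10 members were matched in the RefSeq table for GRCh38.p14, with 14 annotated starts among them, and MCL1 was not matched. Sequences upstream of 4 starts are shown because they span the range of CpG content among the members and belong to genes whose marks differed between the lines. CpG dinucleotides are in capitals, and each sequence reads 5′ to 3′ on the gene's strand. They are chr15:79971197-79971446 (minus) for BCL2A1, chr20:31723990-31724213 (minus) for BCL2L1, chr2:111120664-111120913 (plus) for BCL2L11 and chr18:59899746-59899995 (plus) for PMAIP1.
BCL2A1: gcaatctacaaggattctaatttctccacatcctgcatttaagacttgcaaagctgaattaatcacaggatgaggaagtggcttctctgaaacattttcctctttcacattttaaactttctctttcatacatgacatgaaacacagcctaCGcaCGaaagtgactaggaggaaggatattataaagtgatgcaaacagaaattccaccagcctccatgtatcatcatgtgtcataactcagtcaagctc
BCL2L1: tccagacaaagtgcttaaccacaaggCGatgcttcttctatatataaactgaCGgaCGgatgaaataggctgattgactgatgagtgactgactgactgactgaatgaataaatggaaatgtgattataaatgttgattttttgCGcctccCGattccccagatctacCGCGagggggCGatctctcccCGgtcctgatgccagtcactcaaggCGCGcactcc
BCL2L11: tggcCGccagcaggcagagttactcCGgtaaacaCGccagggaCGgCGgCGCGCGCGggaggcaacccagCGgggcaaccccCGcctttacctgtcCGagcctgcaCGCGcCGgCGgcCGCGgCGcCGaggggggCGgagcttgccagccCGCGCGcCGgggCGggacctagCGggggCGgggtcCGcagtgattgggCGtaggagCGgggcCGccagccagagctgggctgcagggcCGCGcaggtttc
PMAIP1: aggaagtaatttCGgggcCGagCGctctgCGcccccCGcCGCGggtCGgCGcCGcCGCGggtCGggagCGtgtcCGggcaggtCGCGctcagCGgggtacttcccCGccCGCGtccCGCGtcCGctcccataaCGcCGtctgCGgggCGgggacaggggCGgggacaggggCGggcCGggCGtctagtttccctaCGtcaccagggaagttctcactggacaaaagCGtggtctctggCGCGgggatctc

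The BCL2A1 stretch held 2 CpG in 250 bases with a GC content of 38.8%, and 22.9% of the 35116 promoters in the table held as few. The BCL2L1 stretch held 11 CpG in 224 bases, and the full 250 bases before that start held 17, against a median of 11 over all promoters of 250 bases. BCL2L11 had 34 CpG in 250 bases and PMAIP1 had 36, with 94.2% and 96.0% of promoters having no more. The printed BCL2L1 stretch lies before another annotated start, and the 250 bases before its canonical start held 12 CpG. Of the other members, BCL2 had 24 CpG, BAX 25 and BAK1 5, and the starts of BID had from 4 to 30. BBC3 had 4, but its only matched stretch, chr19:47232668-47232917, is not the one before its canonical start at chr19:47231199. The CpG content before that canonical start was not measured. Across the protein-coding genes matched to the promoter table, the CpG content of the promoter and the presence of H3K4me3 went together. A start peak in all 3 untreated Raji libraries was found for 5.63% of the 1633 genes with at most 2 CpG, against 69.4% of the 11330 genes with at least 10. In NALM6 these shares were 1.47% and 45.1%, and in REH they were 2.69% and 57.3%. The low-CpG class is the one that BCL2A1 belongs to.

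Letter motifs were searched on both strands of the 250 bases before each of the 14 starts. CACGTG, the E-box letters, occurred in 4 of the 14 stretches, at the 3 genes BAX, BID and BBC3, against 6.34% of all promoters, with 4 matches before the start of BAX. TGANTCA, the AP-1 letters, occurred in 1 of the 14 (BBC3) against 6.57%, and the NF-κB motif in none against 1.73%. GGGCGG was found in 8 of the 14 against 42.6%, CCAAT in 4 against 32.0%, and TATAAA in 2 (BCL2L1 and BCL2A1) against 10.7%. Motifs were allowed to overlap, a motif that reads the same on both strands was counted once a position, and several stretches before the starts of BID overlap. These are letter matches in these windows and not binding sites.

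Libraries differed in depth and in how much of the genome was called. Of the 54 libraries, 48 allowed the number of mapped reads to be read from the deposited values, and the lowest was 5.12 M, the median 18.8 M and the highest 47.9 M. The 6 libraries of NALM6 replicate 1 carry another scaling of the signal, not stated in the sources used here, and shorter peaks. For H3K27me3 in Raji, the untreated libraries held 819, 24143 and 73265 peaks and the treated ones 3424, 2778 and 101702. The labelled lines were checked against marker genes. Of 6 B-lineage markers, an H3K4me3 start peak in all 3 untreated libraries was found for 6 in Raji, 5 in REH and 4 in NALM6. The mature B-cell markers CD40, CR2, FCER2 and MS4A1 did so in Raji (4 of 4) and in neither leukaemia line (0 of 4). Of 5 precursor B-cell markers, 1 did so in Raji and 4 in each of NALM6 and REH, and no T-cell, myeloid or erythroid marker (11 genes) did so in any line. For H3K4me2 the picture was less sharp. There, 1 of 4 T-cell and 1 of 4 myeloid markers had a start peak in all 3 untreated REH libraries, and none in Raji or NALM6. Of the 4 mature B-cell markers, 3 did so in Raji and 1 in each of NALM6 and REH.

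Start peaks of the 2 H3K4 marks were present at nearly all members in every line, and BCL2A1 was the exception. For H3K4me3, BCL2, MCL1, BCL2L11 and PMAIP1 had a start peak in all 3 libraries of all 6 groups. BCL2L1, BAX and BID missed 1 treated NALM6 library, and BAK1 and BBC3 missed 1 library in each NALM6 group. BCL2A1 had a start peak in 3 untreated and 2 treated Raji libraries and in none of the 12 libraries of NALM6 and REH. A start peak in all 3 untreated Raji libraries and in none of untreated NALM6 was found for 2.89% of all protein-coding genes, and 2.17% against REH, and among the members this held for BCL2A1 (1 of 10) in both cases. In all 3 untreated libraries, H3K4me3 covered the starts of 10 of 10 members in Raji against 52% of all protein-coding genes, 7 of 10 in NALM6 against 32.4% and 9 of 10 in REH against 42.2%. In treated cells the counts were 9 of 10 against 49.5%, 4 of 10 against 25.1% and 9 of 10 against 42.4%. The fewest members were counted in treated NALM6 replicate 3, which had 4 of 10 at a depth of 5.41 M mapped reads and 4389 peaks.

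H3K4me2 gave the same picture of the starts. BCL2, BCL2L1, BAX, BCL2L11, BID and BBC3 had a start peak in all 18 libraries. MCL1, BAK1 and PMAIP1 missed 1 library in each NALM6 group, and MCL1 also missed 1 untreated Raji library. BCL2A1 had a start peak in 1 untreated and 2 treated Raji libraries and in no other. All 3 untreated libraries had a start peak at 8 of 10 members in Raji against 44.5% of all protein-coding genes, 6 of 10 in NALM6 against 25.6% and 9 of 10 in REH against 54.2%. In the treated groups the counts were 9 of 10 in Raji against 50.4%, 6 of 10 in NALM6 against 28.8% and 9 of 10 in REH against 49.3%. Each share lay above that of all genes. The members have from 2 to 11 annotated starts, and the part of this number in the shares was not tested.

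BCL2A1, which encodes the prosurvival protein BFL-1, had called peaks of both H3K4 marks in Raji and in no library of NALM6 or REH. Its signal is the sum of the coverage over the peaks of the window, in multiples of the median peak of the library, and these totals depend on how many bases were called. Over the gene body with 3 kb flanks, H3K4me3 was 0.969, 1.25 and 0.749 median peaks in the 3 untreated Raji libraries and 1.00, 1.41 and 0.556 in the treated ones. It was 0 in all 12 NALM6 and REH libraries. The exact two-sided permutation test of untreated Raji against either line gave p = 0.1, the smallest that 3 libraries against 3 can give, and 29.9% of all genes with signal lay higher in Raji without overlap against REH and 34.6% against NALM6. H3K4me2 over the same window was 2.49, 0.638 and 1.26 median peaks in untreated Raji and 4.46, 3.11 and 0.911 in treated Raji, with overlapping groups. In limma these differences from bryostatin were 0.57 (SE 0.31) on the log2 scale for H3K4me2 and 0.08 (SE 0.29) for H3K4me3, with adjusted p = 0.727 and 0.991 (Benjamini-Hochberg). Merged over the Raji libraries, the called H3K4me2 stretch, chr15:79964201-79974290, spans much of the gene and its start, which is the CpG-poor one printed above.

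BCL2L1, which encodes BCL-XL, had the largest difference between lines among the start regions tested. H3K4me3 within 1 kb of its starts was 6.01, 6.15 and 4.68 median peaks in the untreated Raji libraries, 2.43, 1.66 and 1.88 in REH, and 0.98, 0.81 and 0.91 in NALM6. The order was Raji, then REH, then NALM6, and the libraries of the 3 lines did not overlap. Raji lay above REH without overlap at 30.4% of all protein-coding genes with signal, Raji above NALM6 at 34.9% and NALM6 below REH at 10%. In the treated libraries the values were 4.21, 5.16 and 4.17 in Raji, 1.55, 2.30 and 1.88 in REH and 0.69, 0.94 and 0 in NALM6, in the same order.

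For the line comparisons, peaks were merged into regions and the log2 of each region's total signal was set against the median region of its library. The comparisons used regions called in every library of both lines. At the start region of BCL2L1, chr20:31716051-31724470, H3K4me3 was higher in Raji than in REH by 1.16 on the log2 scale (SE 0.13, adjusted p = 7.18e-05, limma with Benjamini-Hochberg). The values over the median region were 1.54, 2.14 and 1.76 in Raji and 0.66, 0.69 and 0.62 in REH. The called length was 5810, 8390 and 7840 bp in Raji and 4770, 5060 and 3560 bp in REH. The mean signal per called base, which does not grow with the length, still differed by 0.65 (adjusted p = 0.0095). Raji exceeded NALM6 by 2.33 (SE 0.26, adjusted p = 0.00104) and by 1.45 in mean signal (adjusted p = 0.013). NALM6 was below REH, with a difference of -1.17 (SE 0.21, adjusted p = 0.0233) and of -0.81 in mean signal (adjusted p = 0.26). The region contains the start of the non-coding gene ABALON, and its signal cannot be divided between the genes because the assay carries no strand.

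H3K4me2 at the BCL2L1 start followed the same order in total signal. The values over the median region were 2.40, 2.40 and 2.64 in Raji and 1.71, 1.84 and 1.83 in REH, a difference of 0.69 (SE 0.11, adjusted p = 0.000153, limma with Benjamini-Hochberg). The called length was 7000, 6460 and 10410 bp in Raji and 6020, 5740 and 5630 bp in REH, and the difference in mean signal per base was -0.14 (adjusted p = 0.57). Here the higher total went with a longer called stretch, not with a higher mean. Raji exceeded NALM6 by 1.45 (SE 0.18, adjusted p = 0.00113) and REH exceeded NALM6, with a NALM6 minus REH difference of -0.72 (SE 0.15, adjusted p = 0.0216). These differences in mean signal were 0.53 (adjusted p = 0.18) and -0.59 (adjusted p = 0.098).

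Within the BCL2L1 body the lines marked different stretches with H3K4me2. The intronic region chr20:31673961-31677630, 47 kb into the gene, was lower in NALM6 than in REH by a difference of -1.05 (SE 0.16, adjusted p = 0.00799, limma with Benjamini-Hochberg), and by -0.80 in mean signal (adjusted p = 0.027). The region 38 kb in, which holds the start of BCL2L1-AS1, was higher in Raji than in NALM6 by 0.84 (SE 0.22, adjusted p = 0.0319), with 0.62 in mean signal (adjusted p = 0.2). A stretch at chr20:31705101-31706960 was called in 3 untreated and 2 treated Raji libraries and in no library of NALM6 or REH. A stretch over the end of the gene, chr20:31663731-31668890, was called in all 6 REH libraries, in 1 treated Raji library and in no NALM6 library. These presence counts carry no test.

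**Figure D1:**
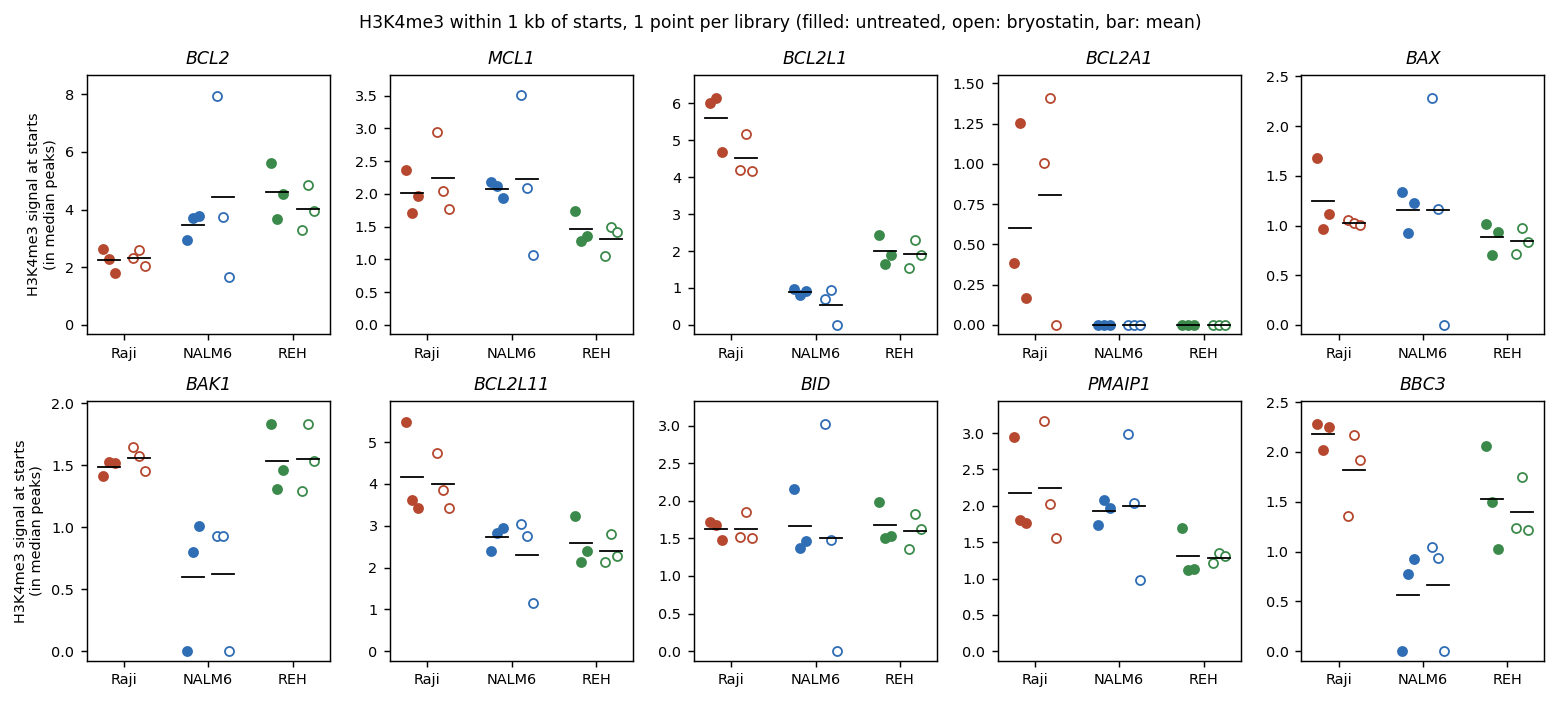
H3K4me3 signal within 1 kb of the starts of each member (vertical axis, median peaks of the library) in every library of Raji, NALM6 and REH, with filled points for untreated libraries, open points for bryostatin and bars at group means. BCL2L1 sits between 4.68 and 6.15 in untreated Raji and between 0.81 and 0.98 in untreated NALM6, and BCL2A1 is at 0 outside Raji.

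BCL2, the founding prosurvival gene, ran the other way. At its start region, chr18:63314271-63321910, H3K4me3 was 1.87, 1.83 and 1.89 over the median region in REH and 0.34, 0.62 and 0.39 in Raji. Raji was lower, with a difference of -1.41 (SE 0.09, adjusted p = 1.82e-06, limma with Benjamini-Hochberg) and of -0.90 in mean signal (adjusted p = 0.0016). The called length was 4400, 4920 and 4350 bp in Raji and 7550, 5240 and 4490 bp in REH. Against NALM6, Raji was also lower, by a difference of -0.98 (SE 0.16, adjusted p = 0.00506) and of -0.79 in mean signal (adjusted p = 0.037). NALM6 and REH did not pass the test (-0.43, SE 0.13, adjusted p = 0.101). In multiples of the median peak, untreated REH had 5.62, 3.66 and 4.54, NALM6 had 2.96, 3.69 and 3.77, and Raji had 2.64, 2.30 and 1.81. For H3K4me2 the Raji minus REH difference was -0.34 (SE 0.13, adjusted p = 0.0457), and the mean signal did not pass (-0.19, adjusted p = 0.43).

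Further into the BCL2 gene, H3K4me2 stretches were called in Raji and not in the leukaemia lines. The stretch chr18:63150491-63163330, 156.4 to 169.3 kb from the start and close to the 3′ end, was called in all 6 Raji libraries and in none of the 12 others. It holds an annotated exon and start of BCL2 transcripts and the start of a non-coding gene, ENSG00000267766. The intronic stretch chr18:63291891-63295190, 24.6 to 27.9 kb from the start, showed the same presence. The intronic stretch chr18:63284031-63286760 was called in 2 libraries of each Raji group and in no other. The stretch at the 3′ end, chr18:63135381-63146430, was called in every line, in 17 of 18 libraries. Over all 10 members, 5 of 25 merged H3K4me2 regions (20%) were called in all 3 untreated Raji libraries and in no untreated library of the other lines, against 3.5% of 23002 regions genome-wide. Called in the same way in REH were 1 of 25 (4%) against 7.7%. For H3K4me3 the Raji count was 1 of 17 (5.88%) against 3.71%. These are counts without a test, and regions of 1 gene are not independent.

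**Figure D2:**
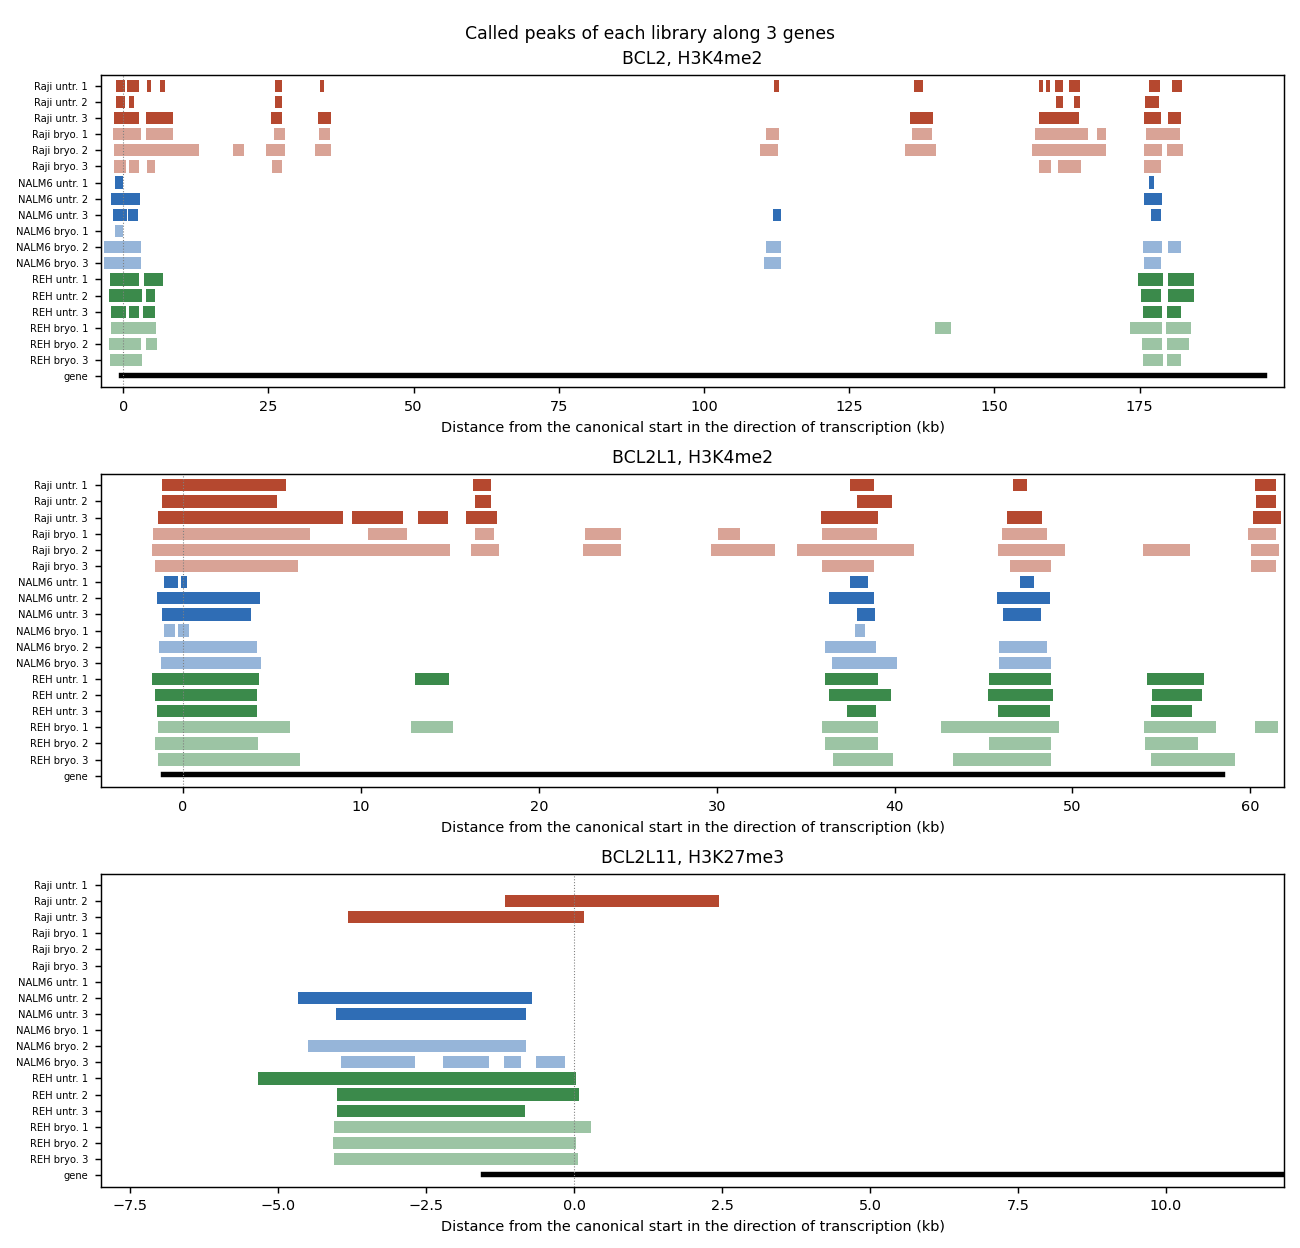
Called peaks of every library (rows, grouped by line and treatment) along BCL2 and BCL2L1 for H3K4me2 and along BCL2L11 for H3K27me3, by distance from the start in kb. Raji rows carry H3K4me2 peaks 24.6 to 27.9 kb and 156.4 to 169.3 kb into BCL2 where none is called in the NALM6 and REH rows.

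MCL1, a prosurvival gene with a short-lived protein, was marked at its start in every line. H3K4me3 within 1 kb of its starts was 2.36, 1.71 and 1.97 median peaks in untreated Raji, 1.74, 1.28 and 1.35 in REH and 2.18, 2.11 and 1.93 in NALM6. Raji overlapped both other lines, and NALM6 lay above REH, as at 8.14% of all genes. For H3K4me3 the start region did not pass the test in any pair of untreated lines, and Raji minus REH was 0.12 (SE 0.10, adjusted p = 0.356, limma with Benjamini-Hochberg). In mean signal that difference was -0.56 (adjusted p = 0.028), and the called length in Raji was 5460, 6440 and 6660 bp against 3820, 3830 and 2550 bp in REH. At the 3′ end, the H3K4me2 region chr1:150559661-150565640 was higher in Raji than in REH by 0.77 (SE 0.10, adjusted p = 4.89e-05) and than in NALM6 by 0.88 (SE 0.16, adjusted p = 0.00715). The mean signal differed by 0.05 (adjusted p = 0.86) and 0.64 (adjusted p = 0.094). This region also holds the start of ADAMTSL4-AS1, so its signal cannot be assigned to MCL1 alone.

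The effector genes BAX and BAK1, whose proteins form the mitochondrial pore, had 1 called start region between them among the untreated lines. H3K4me3 at the BAX starts ran from 0.70 to 1.68 median peaks over the 9 untreated libraries, and the 3 lines overlapped. The BAX start region passed no line comparison for either mark in the fits with all libraries. BAK1 had H3K4me3 of 1.41, 1.53 and 1.52 median peaks in untreated Raji, 1.83, 1.31 and 1.46 in REH and 0, 0.80 and 1.01 in NALM6, so that NALM6 lay lowest, with its 0 in the replicate 1 of other scaling. NALM6 lay below REH without overlap at 10% of all genes with signal and below Raji at 34.9%. Its H3K4me2 start region, chr6:33577461-33580740, was -0.24, -0.71 and -0.13 over the median region in Raji and 0.05, 0.13 and 0.50 in REH. That difference was -0.59 (SE 0.17, adjusted p = 0.0142, limma with Benjamini-Hochberg), with -0.51 in mean signal (adjusted p = 0.047). A second region 10 kb downstream of the BAX start contains the start of FTL, the ferritin light chain gene, and is not read as a feature of BAX.

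Among the BH3-only genes, BCL2L11, which encodes BIM, had opposite differences for the H3K4 marks between Raji and REH. H3K4me2 over its start, chr2:111116891-111126960, was 1.08, 1.42 and 1.15 over the median region in Raji and 2.00, 2.02 and 2.21 in REH. Raji was lower, with a difference of -0.86 (SE 0.12, adjusted p = 6e-05, limma with Benjamini-Hochberg) and of -1.16 in mean signal (adjusted p = 6.5e-05). The called length was 5050, 5220 and 9620 bp in Raji and 7100, 6590 and 6650 bp in REH. H3K4me3 over the start was 1.41, 1.37 and 1.31 in Raji and 1.07, 1.06 and 0.96 in REH, a difference of 0.33 (SE 0.07, adjusted p = 0.00404). The mean signal differed by 0.16 (adjusted p = 0.54). Against NALM6, H3K4me2 in Raji was lower by a difference of -0.70 (SE 0.21, adjusted p = 0.0484) and of -0.90 in mean signal (adjusted p = 0.027). H3K4me3 did not pass there (0.28, SE 0.15, adjusted p = 0.239).

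PMAIP1, which encodes NOXA, showed the same division of the marks in total signal, but not in mean signal per base. Its H3K4me2 start region was -1.003, -0.47 and -0.79 over the median region in Raji and -0.13, -0.40 and -0.09 in REH, a difference of -0.54 (SE 0.17, adjusted p = 0.0164, limma with Benjamini-Hochberg). Its H3K4me3 start region was 0.54, 0.37 and 0.45 in Raji and 0.14, 0.12 and -0.11 in REH, a difference of 0.40 (SE 0.10, adjusted p = 0.00621). Neither passed in mean signal per base (-0.46, adjusted p = 0.1, and -0.14, adjusted p = 0.59), and the H3K4me3 peaks were 3110, 4510 and 4380 bp long in Raji and 2810, 2540 and 1820 bp in REH. BCL2L11 and PMAIP1 have the CpG-richest of the promoters printed above.

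BID, which links the death receptors to the mitochondria, had small differences. H3K4me2 was higher in Raji than in REH by 0.30 (SE 0.10, adjusted p = 0.0313, limma with Benjamini-Hochberg) over a region that also holds the start of LINC00528. H3K4me3 at the BID start differed by -0.38 (SE 0.13, adjusted p = 0.0379), with -0.26, 0.26 and 0.10 over the median region in Raji and 0.37, 0.54 and 0.33 in REH. In mean signal these differences were 0.13 (adjusted p = 0.57) and -0.13 (adjusted p = 0.7). BBC3, which encodes PUMA, carried a long H3K4me2 region that ranked among the strongest of the members, with 2.31, 2.34 and 2.28 over the median region in Raji and 2.15, 2.35 and 2.22 in REH. It passed no line comparison in the fits with all libraries. Its H3K4me3 was 2.28, 2.02 and 2.25 median peaks in untreated Raji, 2.06, 1.50 and 1.03 in REH, and 0, 0.78 and 0.93 in NALM6, where all 3 libraries lay below those of the other lines. NALM6 lay below REH without overlap at 10% of all genes with signal and below Raji at 34.9%, and the 0 is that of replicate 1 with its other scaling.

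**Figure D3:**
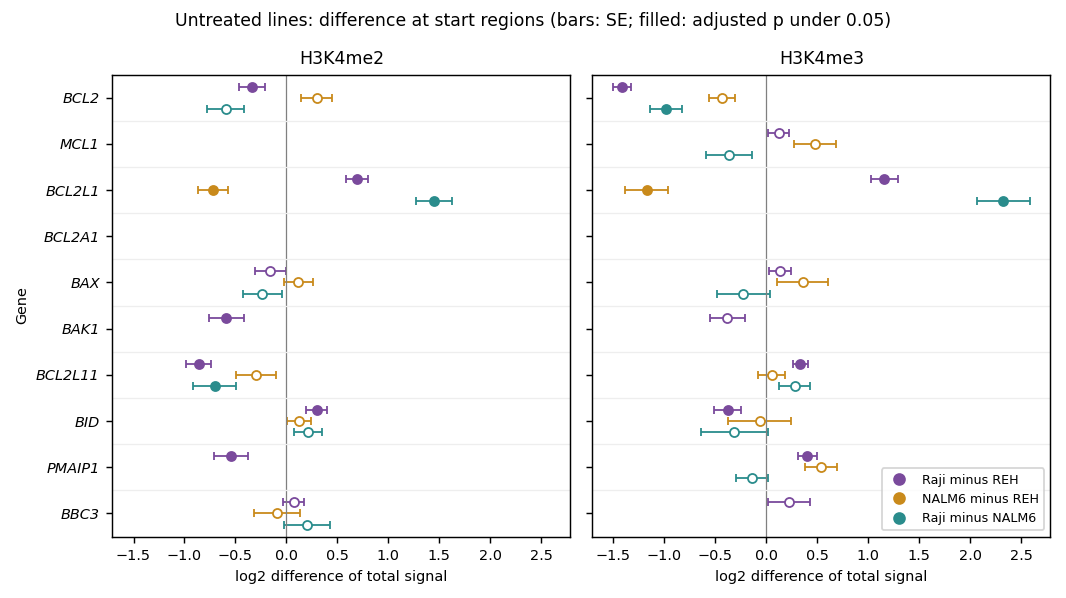
Log2 difference in total signal of the region over the main (canonical) start of each member between untreated lines, with the standard error, for H3K4me2 and H3K4me3 in separate panels. Each point is first-named minus second-named line and is filled where the adjusted p is under 0.05. BCL2L1 is higher in Raji than in both other lines for both marks, and BCL2 is lower in Raji for H3K4me3.

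Counted over all member regions tested, 7 of 13 H3K4me2 regions differed between untreated Raji and REH, against 46.8% of all 7999 regions. Between NALM6 and REH 2 of 11 differed, against 11.4%, and between Raji and NALM6 4 of 10, against 18.9%. For H3K4me3 the counts were 5 of 10 against 51.3%, 1 of 7 against 7.15% and 2 of 7 against 20.2%, in the same order of pairs. For Raji and REH the members' share was close to that of all regions for both marks. Median differences of the member regions in Raji minus REH were -0.0014 for H3K4me2 and 0.13 for H3K4me3, beside 0.0025 and -0.016 for all regions. In the comparisons with NALM6 fewer member regions could be tested, and its replicate 1 has short peaks. Without replicate 1 in both lines, 8 of 10 H3K4me3 member regions differed between NALM6 and REH, and 8 of 12 between Raji and NALM6, with 2837 of 7033 and 5216 of 8557 regions called in all. The results of single members above come from the fits that include replicate 1. Some members that did not pass against NALM6 there therefore passed for H3K4me3 without it.

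The same line comparisons among bryostatin-treated libraries, added after the data were seen, use other libraries of the same lines. Same-numbered untreated and treated libraries deviated together for several lines and marks, so these comparisons are not independent of those above. BCL2L1 at its start was again higher in treated Raji than in treated REH, by 0.97 for H3K4me3 (adjusted p = 3.47e-05) and 0.84 for H3K4me2 (adjusted p = 7.45e-05, limma with Benjamini-Hochberg). BCL2 was again lower for H3K4me3 in Raji than in REH (-1.09, adjusted p = 2.04e-06) and NALM6 (-0.81, adjusted p = 0.0465). BCL2L11 again had lower H3K4me2 (-0.79, adjusted p = 0.000232) and higher H3K4me3 (0.45, adjusted p = 0.000143) in Raji than in REH. PMAIP1 H3K4me3 was again higher (0.46, adjusted p = 0.0165). For H3K4me2 the starts of BCL2 (0.28, adjusted p = 0.178), BAK1 (-0.16, adjusted p = 0.35) and PMAIP1 (-0.28, adjusted p = 0.113) did not pass among treated libraries, with the sign at BCL2 turned. Nor did BID at its start between Raji and REH for either mark, or H3K4me2 at the BCL2L11 start between Raji and NALM6. At BCL2L1, the H3K4me3 start and the H3K4me2 region 47 kb in had a peak in 2 of 3 treated NALM6 libraries. Neither could therefore be tested again in the comparisons with NALM6. The H3K4me2 region 46 kb into BCL2L1 was lower in treated Raji than in treated REH (-1.70, adjusted p = 8.86e-06). The region 38 kb in was higher (0.86, adjusted p = 0.00048), and the region at the 3′ end of BCL2 was lower (-1.10, adjusted p = 0.00083). The H3K4me2 region that spans MCL1 was higher in treated Raji than in REH (1.04, adjusted p = 1.5e-05) and NALM6 (1.08, adjusted p = 0.00272), and it also holds the start of ADAMTSL4-AS1 and of other annotated genes. For H3K4me3, BAK1 at its start was lower in treated Raji than in treated REH (-0.26, adjusted p = 0.0154), the region downstream of BAX that holds the FTL start was higher (0.25, adjusted p = 0.0441), and MCL1 at its start was higher (0.47, adjusted p = 0.00242). Against treated NALM6, treated Raji was higher at the BCL2L11 start for H3K4me3 (0.78, adjusted p = 0.00896), and at BCL2L1 for H3K4me2 at the start (1.66, adjusted p = 0.00111) and 38 kb in (1.13, adjusted p = 0.00565). Treated NALM6 was below treated REH for H3K4me2 at the starts of BCL2L1 (-0.75, adjusted p = 0.0483) and BCL2L11 (-0.50, adjusted p = 0.0314). In mean signal per called base, the calls that passed were those between Raji and REH for H3K4me3 at BCL2 and BCL2L1 and for H3K4me2 at the BCL2L11 start and 38 and 46 kb into BCL2L1. In all, 7 of 10 H3K4me3 member regions differed between treated Raji and REH, against 54.3% of all regions, and 6 of 14 H3K4me2 regions against 49.2%. For treated NALM6 against REH the counts were 0 of 4 for H3K4me3 against 6.21% and 2 of 9 for H3K4me2 against 12%, and for treated Raji against NALM6 they were 2 of 4 against 18.9% and 3 of 9 against 23.3%.

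No member region passed the test of bryostatin against untreated cells in any line or mark. For H3K4me2, limma with Benjamini-Hochberg adjustment called 0 of 17 member regions in Raji against 0% of all regions, 0 of 9 in NALM6 against 0%, and 0 of 17 in REH against 1.45%. For H3K4me3 the counts were 0 of 13, 0 of 4 and 0 of 10, against 0.155%, 0% and 1.67%. For H3K27me3, 1 member region could be tested, in REH, and was not called, against 0% of 8324 regions. At an unadjusted p under 0.05 there were 1 of 17 member regions for H3K4me2 in Raji (6.72% of all), 1 of 17 in REH (9.88%), and the 1 region for H3K27me3 in REH (2.59%). There was none for H3K4me2 in NALM6 (1.36%) or for H3K4me3 in Raji (5.65%), NALM6 (0.182%) and REH (10.5%). Log2 differences at the regions over the main (canonical) start of each member ranged from -0.36 to 0.57 over lines and H3K4 marks. A larger H3K4me2 difference in Raji, at a region over another annotated BCL2 start, is given below. With so few calls among all regions, the members' counts are at the background.

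**Figure D4:**
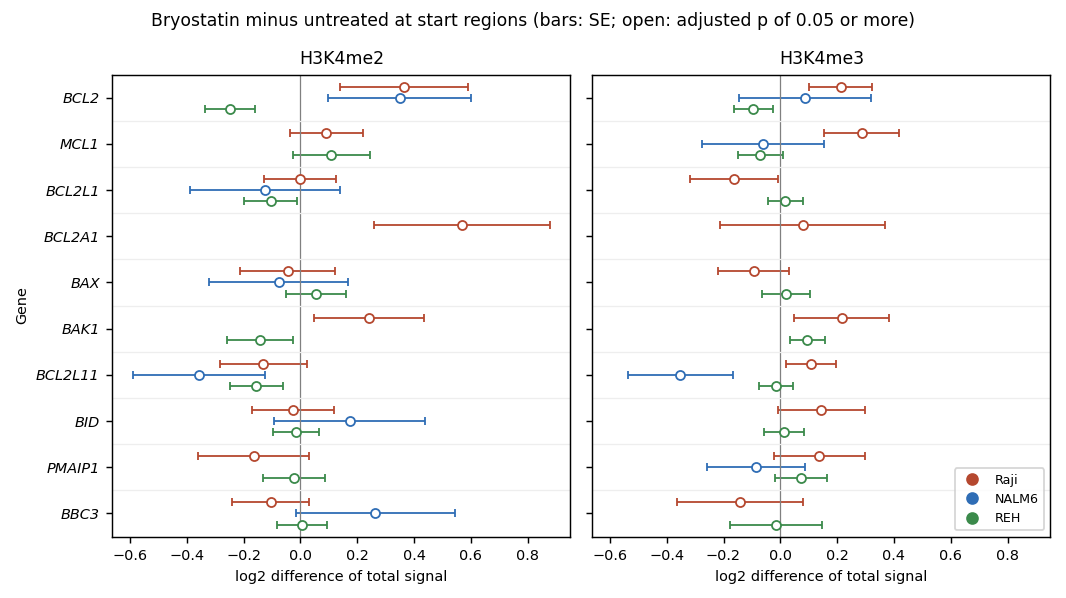
Log2 difference in total signal of the region over the main (canonical) start of each member, bryostatin minus untreated, with the standard error, for Raji, NALM6 and REH. Panels are for H3K4me2 and H3K4me3, with open points where the adjusted p is 0.05 or more. All points are open, and they lie between -0.36 and 0.57.

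The prosurvival genes gave these values. For BCL2L1 the start region had a difference of -0.00054 (SE 0.13) for H3K4me2 and -0.16 (SE 0.15) for H3K4me3 in Raji, and of -0.10 (SE 0.09) and 0.02 (SE 0.06) in REH. For MCL1 the H3K4me3 difference was 0.29 (SE 0.13, adjusted p = 0.878, limma with Benjamini-Hochberg) in Raji and -0.07 (SE 0.08) in REH. BCL2 at its start had an H3K4me2 difference of -0.25 in REH (SE 0.09, unadjusted p = 0.0149, adjusted p = 0.306). The values over the median region were 1.29, 1.26 and 1.42 untreated and 1.06, 1.21 and 0.97 treated, without overlap, as in 7.7% of all regions in that direction. The mean signal differed by -0.03. In Raji the BCL2 stretch chr18:63150491-63163330 had 0.66, 0.21 and 0.76 untreated and 1.23, 1.55 and 1.04 treated for H3K4me2. That difference was 0.73 (SE 0.18, unadjusted p = 0.00182, adjusted p = 0.333), and the groups did not overlap, as in 4.97% of all regions. The called length was 4650, 2270 and 6930 bp untreated and 10570, 12840 and 6050 bp treated, and the mean signal differed by 0.17 (adjusted p = 0.84). The treated Raji H3K4me2 libraries were deeper, at 15.6 to 18.8 M mapped reads against 6.70 to 13.9 M, and the part of depth in this difference was not tested.

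None of the effector or BH3-only genes passed either. For BAX the start differences were -0.05 (SE 0.17) for H3K4me2 and -0.09 (SE 0.12) for H3K4me3 in Raji and 0.05 (SE 0.10) and 0.02 (SE 0.08) in REH. For BAK1 they were 0.24 (SE 0.19) and 0.22 (SE 0.17) in Raji and -0.14 (SE 0.12) and 0.10 (SE 0.06) in REH. For BCL2L11, the H3K4me3 difference was 0.11 (SE 0.09) in Raji, -0.01 (SE 0.06) in REH and -0.35 (SE 0.18, adjusted p = 1.00, limma with Benjamini-Hochberg) in NALM6. For BBC3 the H3K4me2 difference was -0.10 (SE 0.14) in Raji, 0.26 (SE 0.28) in NALM6 and 0.0047 (SE 0.09) in REH. BID and PMAIP1 lay between -0.16 and 0.17 in the comparisons in which they were tested. Standard errors at the start regions ran from 0.06 to 0.16 in REH and from 0.17 to 0.28 in NALM6.

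No start peak of a member was gained (0 of 3 untreated and 3 of 3 treated libraries) or lost in the reverse sense with bryostatin, for any mark and line. Such gains or losses made up at most 0.39% of all protein-coding genes. The response of Raji was compared with that of REH by an interaction term in limma. Of the member regions, 0 of 13 were called for H3K4me2 against 0.0275% of all regions, and 0 of 10 for H3K4me3 against 0.0776%. At an unadjusted p under 0.05 there were 1 of 13 (6.59% of all) and 2 of 10 (4.45%). These were BCL2 for H3K4me2 (0.60, unadjusted p = 0.044, adjusted p = 0.726, limma with Benjamini-Hochberg), and BCL2 (0.37, unadjusted p = 0.023) and MCL1 (0.37, unadjusted p = 0.0307) for H3K4me3, both with adjusted p = 0.998.

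H3K27me3 was found at 2 members in more than 1 line, BCL2L11 and BBC3. BCL2L11 had a start peak in all 6 REH libraries, in 2 of 3 libraries of each NALM6 group, and in 2 untreated and 0 treated Raji libraries. Those 2 untreated Raji libraries had 22.9 and 32.4 M mapped reads, and the treated ones had 7.74, 5.33 and 14.5 M. The part of depth in this difference was not tested. In median peaks its signal was 7.97, 3.84 and 4.70 in untreated REH, 2.35, 4.73 and 4.72 in treated REH, 0, 3.49 and 1.17 in untreated NALM6, 0, 3.69 and 5.35 in treated NALM6, and 0, 3.35 and 2.33 in untreated Raji. The promoter of BCL2L11 printed above thus lay within 1 kb of both H3K4me3 and H3K27me3 peaks in REH, measured in separate libraries. BBC3 had a start peak in 2 of 3 libraries of each NALM6 group, in 2 untreated and 1 treated REH libraries and in 1 untreated Raji library. In all 3 untreated REH libraries a start peak was found for 1 of 10 members, against 10% of all protein-coding genes, and in treated REH for 1 of 10 against 10.9%. The other 8 members had H3K27me3 at the start in 1 library at most. That library was untreated Raji replicate 2, in which 9 of 10 members and 57.1% of all protein-coding genes had a start peak. Without it BBC3 and those other members had none in Raji, and BCL2L11 had a start peak in 1 untreated Raji library.

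In REH the H3K27me3 region over the BCL2L11 start, chr2:111115561-111121200, was lower after bryostatin without passing the test. The values over the median region were 0.58, 0.83 and 1.43 untreated and 0.34, 0.01 and -0.27 treated, and the groups did not overlap, as in 3.78% of all regions in that direction. The difference was -0.92 (SE 0.27, unadjusted p = 0.00567, adjusted p = 1, limma with Benjamini-Hochberg). With the maximum signal of the region in place of the total, it was -0.94 and passed (adjusted p = 0.0262), the only bryostatin alternative under which a member region did. The share of all regions passing with the maximum is not given here, so this call is not read as particular to BCL2L11. In all, 274 alternatives were run with limma over the comparisons. In NALM6 without replicate 1, the same comparison gave -0.11 (adjusted p = 0.998). The REH region also contains the start of ACOXL-AS1.

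The rest of the apoptosis pathway was read from named lists. Of 13 other BCL2 family genes, 8 had an H3K4me3 start peak in all 3 untreated libraries in Raji, 7 in NALM6 and 6 in REH. The shares of all protein-coding genes were 52%, 32.4% and 42.2%, and they also apply to the lists below. An H3K4me3 start peak in 3 of 3 libraries of 1 untreated line and 0 of 3 of another was found for 0.385% to 2.89% of all genes, by pair of lines. BIK, a BH3-only gene, had it in Raji alone, and BNIP3 in NALM6 and REH with 0 of 3 in Raji. HRK, another BH3-only gene, had an H3K27me3 start peak in 3 untreated REH, 2 Raji and 0 NALM6 libraries. For H3K27me3, 3 of 3 in REH with 0 of 3 in NALM6 held for 4.43% of all genes. Of 14 caspase, apoptosome and inhibitor genes, 13, 10 and 12 were marked in Raji, NALM6 and REH. BIRC3, an inhibitor of apoptosis induced by NF-κB, had an H3K4me3 start peak in 3 of 3 untreated Raji libraries and none elsewhere, and BIRC7 in 3 of 3 REH libraries and none elsewhere. Of 10 genes of the extrinsic pathway, 8, 5 and 9 were marked, and the death receptor TNFRSF10A was marked in Raji and REH with 0 of 3 in NALM6. For H3K4me3 in REH, start regions of 6 other family, 12 caspase and inhibitor and 9 extrinsic pathway genes were tested against bryostatin, and 1 was called. Of all regions in that comparison, 1.67% were called. In the other bryostatin comparisons of the H3K4 marks none of these lists had a call. BIRC7 H3K4me3 rose in REH by 0.84 (SE 0.11, adjusted p = 0.00197, limma with Benjamini-Hochberg), and this did not pass with the mean signal (0.87, adjusted p = 0.247) or the maximum (0.70, adjusted p = 0.059).

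The genes most like the most variable members were named over the 18 H3K4me3 libraries. These libraries differ in line, depth and scaling, and the part of these differences in the correlations was not tested. For BCL2A1, whose log2 start signal had an SD of 1.46, they were TRAF3IP3 (Pearson r = 0.978), TMEM156 (0.975) and SRGN (0.970). For BCL2L1, with an SD of 1.45, they were LPCAT1 (0.989), C11orf24 (0.987) and TRIM4 (0.985). These SDs exceeded those of 93.1% and 92.9% of protein-coding genes, while MCL1 had the smallest SD of the members at 0.44, above 49.4% of genes. All protein-coding genes enter these percentages, also genes without a start peak in any library, whose SD is 0. A library without a start peak has the floor value of log2(0.1). BCL2A1 was at this floor in all NALM6 and REH libraries, and BCL2L1 in 1 treated NALM6 library. The correlations describe a shared pattern over these libraries and carry no test.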

How the data were processed

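H3K4me2, H3K4me3 and H3K27me3 were measured by Cut&Tag in 3 cell lines with and without bryostatin, and the libraries form 18 groups of 3. IgG libraries were not used here. Per the study's methods and the labels, the authors trimmed paired-end reads with Trim Galore, aligned them to hg38 with Bowtie2, normalized coverage as RPKM and called stringent SEACR peaks per library. Versions are not given in the sources used here. The deposited signal values are the total and the maximum of that coverage over each peak, and the 6 libraries of NALM6 replicate 1 were deposited on another, unstated scale. The series' design text writes H3K27me2 where the labels write H3K27me3, the name used here.

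Genes and starts came from GENCODE 44. Start peaks overlap the stretch within 1 kb of a start by at least 1 bp. Single values were divided by the library's median peak and compared by exact two-sided permutation tests. For each comparison, overlapping peaks were merged, and log2 totals of regions called in every library were centred on the library median and fitted in R 4.3.3 by limma 3.58.1, using the trended eBayes, where p was adjusted by Benjamini-Hochberg over all regions and called under 0.05. Pairs of groups used different merged regions, so a region's borders differ between comparisons. The fit was tested on simulated data. Other software was pandas 2.3.3, data.table in version 1.17.8 and, for figures, matplotlib 3.10.9. Likeness used log2(start signal + 0.1).

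The 10 members are all named, and their start regions and called regions are given, with the region of largest change where none was called and it adds a value. Other pathway genes were named where a start region passed with bryostatin, or where presence was 3 of 3 in an untreated line and 0 of 3 in another, some being given as counts. The members and lists were chosen with earlier results of these data known. Same-numbered untreated and treated libraries deviated together in every pair for H3K4me2 in NALM6 (correlations 0.40 to 0.45) and REH (0.13 to 0.21). The same held for H3K4me3 in Raji (0.48 to 0.54), NALM6 (0.63 to 0.68) and REH (0.18 to 0.31), and for H3K27me3 in NALM6 (0.65 to 0.66). Fits with the replicate number as a block, other summaries, scalings, filters and windows, and fits without each library were alternatives. Depth limits which peaks are called, so a missing peak is not read as absence of the mark.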

Additional observations from a re-analysis of the deposited data

How the results depend on the processing

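Across the alternatives, no member region was called for bryostatin or the interaction, except 1 for H3K27me3 in REH with the maximum signal. The replicate block gave 0 calls in each of these comparisons. The line comparisons depended more on the processing. The number of regions tested and the share of all regions called can also change with the setting, and they are not given here for each setting. For H3K4me3 without replicate 1, more of all regions were called too, as given above. The counts below are therefore not read as results about the members. For H3K4me2 in Raji against REH (7 calls), the maximum signal gave 4, the mean signal per called base 2 and the replicate block 6, and leaving out 1 library gave 3 (without REH replicate 3) to 7. For H3K4me2 in NALM6 against REH (2 calls), the maximum and no centring gave 0, while the mean, the stronger regions alone and the replicate block gave 1. Leaving out replicate 1 in both lines gave 5, and leaving out 1 library gave 0 to 6 (without NALM6 replicate 1). For H3K4me2 in Raji against NALM6 (4 calls), the maximum and the mean gave 1 each, no centring 0 and the block 3. Leaving out 1 library gave 1 to 7 (without NALM6 replicate 1). For H3K4me3 in Raji against REH (5 calls), the maximum and the mean gave 3 each, no centring 2 and the block 5. For H3K4me3 in NALM6 against REH (1 call), the maximum, the mean, no centring, the stronger regions alone, the block and the treated libraries gave 0. Quantile normalization gave 3, regions called in at least 3 libraries 6, no replicate 1 gave 8, and leaving out 1 library 0 to 8 (without NALM6 replicate 1). For H3K4me3 in Raji against NALM6 (2 calls), the maximum gave 1, no centring 0, regions called in at least 3 libraries 4, no replicate 1 gave 8 and the block 2. Leaving out 1 library gave 2 to 7 (without NALM6 replicate 1). Without centring, the other scale of NALM6 replicate 1 enters the values by construction, and other causes were not tested.

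Among untreated libraries, single differences changed sign in 6 cases in which the main fit or the alternative passed. Sign changes where neither passed were not counted. The BCL2 H3K4me2 difference between Raji and REH was 0.28 among treated libraries against -0.34. For Raji minus REH, BCL2L1 H3K4me2 was -0.070 with the maximum and -0.14 with the mean, MCL1 H3K4me3 was -0.56 and PMAIP1 H3K4me3 -0.14 with the mean. For Raji minus NALM6 without centring, BCL2L11 H3K4me2 was 0.47 and BCL2 H3K4me3 0.19. BCL2 and BCL2L1 H3K4me3 and BCL2L11 H3K4me2 between Raji and REH passed under all 14 alternatives each. Of 10 members, the mean number with a start peak per library was 8.78 for H3K4me2, 7.17 with the stronger peaks alone and 7.39 with equal peak numbers. For H3K4me3 it was 8.89, and 7.11 with equal peak numbers.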
